A study of Homo sapiens with 12 samples.

Results

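Expression of 10 genes of interleukin 6 family signalling was followed across 3 prostate cell lines. They were the ligands IL6 and LIF, the receptor chains IL6R, IL6ST, LIFR and OSMR, the kinases JAK1, JAK2 and TYK2, and the inhibitor SOCS3. The members were the genes of the expression table that carry these symbols, and all 10 were found among the 58302 genes of the table. Libraries of total RNA came from BPH-1, a benign prostate epithelial line, and from DU145 and PC3, prostate cancer (PCa) lines that grow without androgen. The paper compared BPH-1 with PC3 to find chloride channel genes that differ, and it describes no sequencing of DU145. Each line had 4 libraries, numbered 1 to 4 below, and all lines carried the genotype label WT and grew in the same serum-containing medium with antibiotics, with no treatment named. Each line descends from 1 donor, so a difference between lines is one between these cultures. No source says that the 4 libraries of a line came from separate cultures, and the p-values then measure only the spread between these libraries.

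Cytokines of the interleukin 6 family act through the shared signalling chain IL6ST, also called gp130. IL6 first binds IL6R, which has no signalling part of its own. LIF brings IL6ST together with LIFR, and oncostatin M brings it together with OSMR or LIFR. The chains carry the kinases JAK1, JAK2 and TYK2, which phosphorylate STAT3. SOCS3 is induced by STAT3 and binds IL6ST and the JAK kinases, which ends the signal. In the prostate, interleukin 6 is known as a growth factor of cancer cells.

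The values are FPKM, fragments scaled by exon length and by library size, and a gene was called different between 2 lines where the Benjamini-Hochberg adjusted p of a limma fit over all tested genes was under 0.05. Differences below are of mean log2(FPKM + 1) with their standard error (SE), a scale that understates the change of low genes. Depth, recovered from the steps between low values, was 15262887 to 15606584 reads in BPH-1, 13416343 to 16309560 in DU145 and 12950664 to 13871726 in PC3. The lines' labels were checked against epithelial markers. KRT8 and KRT18, keratins of simple epithelium, were at 14.7 FPKM or more in every library. EPCAM and CDH1, a surface protein and a cadherin of epithelial cells, were at 57.7 and 16.3 FPKM or more in BPH-1 and between 0.0851 and 0.573 FPKM in DU145. In PC3, EPCAM was between 6.92 and 11.1 FPKM and CDH1 between 0.427 and 1.42. All libraries thus held epithelial keratins, while DU145 nearly lacked EPCAM and CDH1, which goes against the label of an epithelial line. These markers cannot tell which line a library came from. The identity of the DU145 libraries was not tested, and the name DU145 below is that of the label. KLK3, the prostate-specific antigen gene, was at 0 in all 12 libraries. The summed level of 7 leukocyte markers was 10.5 to 13.7 FPKM in BPH-1, 0.344 to 10.8 in DU145 and 0.223 to 0.328 in PC3, and CD3E of T cells was at 0 throughout. DU145 libraries 1 and 2 held PTPRC at 1.35 and 1.25 FPKM and LYZ at 7.76 and 8.63, while both genes were at 0 in DU145 libraries 3 and 4. In BPH-1 they were at 1.15 to 1.54 and 7.61 to 10.1 FPKM. Not every leukocyte marker split this way, since ITGAM was at 0.494, 0.491, 0.482 and 0.272 FPKM in DU145 libraries 1 to 4 and CSF1R highest in library 3 (0.107). Of the basal keratins, KRT5 was at 0.342 and 0.499 FPKM and KRT14 at 0.275 and 0.442 in libraries 1 and 2, and both were at 0.024 or less in libraries 3 and 4. The fibroblast genes DCN (0.373 and 0.214 FPKM), COL1A2 (0.133 and 0.135) and LUM (0.108 and 0.140) were found in DU145 libraries 3 and 4 and at 0 in libraries 1 and 2. The other fibroblast genes did not split this way. COL1A1 was at 0.433, 0.354, 0.524 and 0.442 FPKM in DU145 libraries 1 to 4, and PDGFRB at 0.531, 0.273, 0.628 and 0.324. COL3A1 and PDGFRA were highest in library 3 (0.111 and 0.050). DU145 libraries 1 and 2 thus differed from 3 and 4 in some genes of several cell types, and their LYZ level lay within the BPH-1 range.

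Libraries also differed by the base composition of genes, and this touches most results below. Among genes under 40% GC, the median deviation from the 12-library mean was 1.39 to 1.52 on the log2 scale in BPH-1. It was -1.20, 0.14, -1.94 and -0.14 in DU145 libraries 1 to 4, and 0.02, -0.20, -0.87 and -1.56 in PC3 libraries 1 to 4. DU145 libraries 1 and 3 and PC3 libraries 3 and 4 were thus low in AT-rich genes. Many of the differences below are therefore also given after each library's GC trend was divided out, which also takes away whatever true line difference runs with base composition. IL6ST (37.6% GC), LIFR (39.3%) and JAK2 (40.1%) lie at the AT-rich end, and TYK2 (61.0%) and SOCS3 (61.9%) at the GC-rich end.

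**Figure D1:**
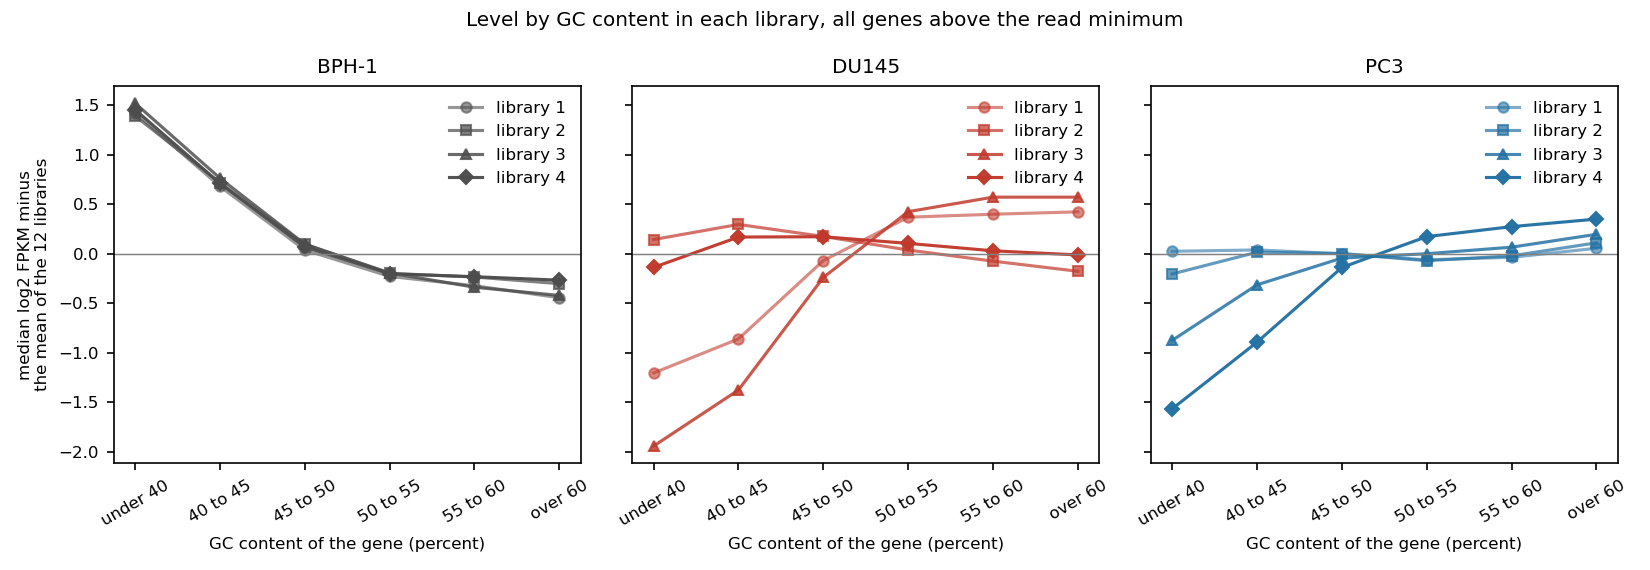
Median log2 FPKM of all genes above the read minimum relative to their mean over the 12 libraries (vertical axis), by GC content of the gene in percent (horizontal axis), with 1 line per library. The 4 BPH-1 libraries run together from 1.39 to 1.52 at the AT-rich end, while DU145 libraries 1 and 3 reach -1.20 and -1.94 there.

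Sequence just before the transcript starts is shown for the members whose windows held a searched motif. RefSeq (GRCh38.p14) gave 17 windows of 250 bases before a transcript start for 9 of the members. They were searched on both strands for TTCNNNGAA (the core bound by STAT factors), TGANTCA (AP-1), GGNNTTTCC (a form of the NF-kB site) and CACGTG (the E-box). Among all 35116 windows of the same length, 6.57% held TTCNNNGAA, 6.57% TGANTCA, 5.48% GGNNTTTCC and 6.34% CACGTG. In the members, 3 windows of 2 genes held 1 match each, so no matches overlapped. The IL6 window held GGNNTTTCC at bases 72 to 64 before the start, and the LIFR windows held TTCNNNGAA at 182 to 174 and at 165 to 157. The 3 windows are printed 5′ to 3′ on the gene's strand with the match in capitals, for IL6 at chr7:22726950-22727199 (plus strand) and for LIFR at chr5:38557468-38557717 and chr5:38595406-38595655 (minus strand). A match is a description of letters and not a bound site, and these data hold no measurement of binding.
IL6 window: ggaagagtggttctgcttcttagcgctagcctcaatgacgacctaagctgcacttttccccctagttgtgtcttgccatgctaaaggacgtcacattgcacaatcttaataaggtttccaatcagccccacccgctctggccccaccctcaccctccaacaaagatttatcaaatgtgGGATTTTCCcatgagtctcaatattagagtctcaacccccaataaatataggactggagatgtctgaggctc
LIFR window at the lower coordinates: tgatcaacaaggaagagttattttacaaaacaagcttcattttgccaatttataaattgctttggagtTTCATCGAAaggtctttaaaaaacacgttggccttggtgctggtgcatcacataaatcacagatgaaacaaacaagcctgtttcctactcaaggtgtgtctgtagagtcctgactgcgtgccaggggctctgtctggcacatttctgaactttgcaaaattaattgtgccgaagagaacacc
LIFR window at the higher coordinates: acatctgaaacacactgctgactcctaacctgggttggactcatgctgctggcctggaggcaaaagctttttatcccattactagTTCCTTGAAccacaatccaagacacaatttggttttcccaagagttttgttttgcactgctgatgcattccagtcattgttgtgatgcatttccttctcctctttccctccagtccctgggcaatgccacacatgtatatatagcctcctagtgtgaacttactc

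IL6, the cytokine that names the family (ENSG00000136244, GRCh38 chr7:22725884-22732002, plus strand), was present in BPH-1 and DU145 and lowest in PC3. BPH-1 libraries 1 to 4 held IL6 at 4.22, 1.55, 2.72 and 1.74 FPKM (mean 2.56 ± 1.22, SD, n = 4). DU145 libraries held 2.63, 3.15, 1.24 and 1.32 FPKM (2.09 ± 0.95, SD, n = 4). PC3 libraries held 0.410, 0.178, 0.206 and 0.567 FPKM (0.340 ± 0.183, SD, n = 4), which rest on 12 to 36 reads each. AC073072.1, an antisense gene that shares 428 exon bases with IL6, averaged 0 FPKM in BPH-1, 0.173 in DU145 and 0.15 in PC3. The use of strand in counting is not known, so reads from those bases cannot be told apart. All 4 PC3 libraries lay below all libraries of the other lines, which overlapped each other. In bulk RNA such as this, fewer cells that express a gene and less RNA of it per cell cannot be told apart. PC3 was lower than BPH-1 by a log2 difference of -1.36 (SE 0.22, adjusted p = 0.000405) and lower than DU145 by -1.16 (SE 0.22, adjusted p = 0.00191). Both calls held at -1.15 and -1.23 with the GC trend divided out. The DU145 and BPH-1 means differed by -0.20, with a 95% interval of -0.83 to 0.44. DU145 libraries 1 and 2, which held PTPRC and LYZ and lacked DCN and COL1A2, were also those with the higher IL6, and the part of those transcripts in the IL6 level was not tested. Without them the difference of DU145 from BPH-1 was -0.58 (adjusted p = 0.141), and PC3 was still lower than DU145 (-0.78, adjusted p = 0.0056).

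LIF, leukemia inhibitory factor (ENSG00000128342, chr22:30240447-30246851, minus strand), was higher in both cancer lines than in the benign line. BPH-1 libraries held 5.19, 5.2, 5.08 and 3.91 FPKM (4.85 ± 0.63, SD, n = 4). DU145 libraries held 103, 72.1, 98.9 and 71.2 FPKM (86.4 ± 17.1, SD, n = 4), and PC3 libraries 35.9, 43.8, 53.5 and 48.5 FPKM (45.4 ± 7.5, SD, n = 4). No line overlapped another, and the order was DU145, PC3, BPH-1. The mean was 17.8-fold that of BPH-1 in DU145 (log2 difference 3.89, SE 0.18, adjusted p = 2.44e-07) and 9.37-fold in PC3 (2.98, SE 0.14, adjusted p = 2.16e-07). PC3 was lower than DU145 by -0.91 (SE 0.18, adjusted p = 0.00286). The 3 differences kept their calls with the GC trend divided out, at 3.41, 2.70 and -0.71. AC004264.1, an antisense gene that shares 175 exon bases with LIF, was at 0.713 FPKM on average in BPH-1, 0.0387 in DU145 and 0.164 in PC3. Another, LIF-AS1, shares 92 exon bases and was at 0.962 to 1.53 FPKM in DU145 and at or below 0.0892 FPKM elsewhere. Whether strand was used in counting is not given in the sources used here, so reads from those bases cannot be told apart.

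IL6R, the ligand-binding chain for interleukin 6 (ENSG00000160712, chr1:154405193-154469450, plus strand), was not called in any comparison. BPH-1 libraries held 3.13, 3.21, 6.56 and 7.13 FPKM (5.01 ± 2.13, SD, n = 4), DU145 libraries 3.98, 3.93, 3.63 and 4.56 (4.03 ± 0.39, SD, n = 4), and PC3 libraries 3.71, 3.83, 4.55 and 5.61 (4.43 ± 0.87, SD, n = 4). The widest spread was inside BPH-1, where libraries 1 and 2 lay below, and libraries 3 and 4 above, every DU145 and PC3 value. The difference from BPH-1 was -0.09 in PC3 (95% interval -0.65 to 0.47) and -0.19 in DU145 (-0.74 to 0.36), and PC3 and DU145 differed by 0.10 (-0.26 to 0.46). After the GC correction the differences were -0.30, -0.59 (adjusted p = 0.0805) and 0.29, and none was called.

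IL6ST, the shared signalling chain (ENSG00000134352, chr5:55935095-55994993, minus strand), was lower in both cancer lines. BPH-1 libraries held 10.15, 7.19, 11.97 and 10.16 FPKM (9.87 ± 1.98, SD, n = 4). DU145 libraries held 1.35, 4.32, 0.476 and 2.84 FPKM (2.25 ± 1.70, SD, n = 4), and PC3 libraries 1.79, 1.03, 0.422 and 0.297 FPKM (0.886 ± 0.684, SD, n = 4). Both cancer lines lay wholly below BPH-1 and overlapped each other. The mean of BPH-1 was 11.1-fold that of PC3 (log2 difference -2.58, SE 0.25, adjusted p = 1.77e-05) and 4.39-fold that of DU145 (-1.89, SE 0.36, adjusted p = 0.00123). The fold over PC3 depends on PC3 library 1, the highest, and the log2 difference ran from -2.79 to -2.42 without 1 PC3 library. Once the GC trend was divided out, the PC3 difference shrank to -1.03 and stayed called (adjusted p = 0.000316), while that of DU145 shrank to -0.14 and was not called (adjusted p = 0.517). PC3 and DU145 differed by -0.69 (95% interval -1.60 to 0.22), which was called as -0.89 with the GC trend divided out (adjusted p = 0.00413), as -1.01 without DU145 library 3 (adjusted p = 0.0391) and as -1.33 without DU145 libraries 1 and 3 (adjusted p = 0.0151). On the deposited values DU145 libraries 1 and 3 lay inside the PC3 range, and only libraries 2 and 4 lay above it. AC008914.1, an antisense gene that shares 797 exon bases with IL6ST, averaged 0.142 FPKM in BPH-1, 0 in DU145 and 0.0242 in PC3.

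LIFR, the partner chain of IL6ST for LIF (ENSG00000113594, chr5:38474963-38608354, minus strand), was the lowest receptor chain of the 4 in each line. BPH-1 libraries held 1.57, 1.84, 1.95 and 1.71 FPKM (1.77 ± 0.16, SD, n = 4). DU145 libraries held 0.1199, 0.978, 0.0764 and 0.791 FPKM (0.491 ± 0.461, SD, n = 4), and PC3 libraries 1.02, 0.764, 0.380 and 0.139 FPKM (0.577 ± 0.393, SD, n = 4). All cancer line libraries lay below BPH-1, and within DU145 libraries 1 and 3, on 28 and 17 reads, lay far below libraries 2 and 4. The difference from BPH-1 was -0.84 in PC3 (SE 0.17, adjusted p = 0.00149) and -0.94 in DU145 (SE 0.20, adjusted p = 0.00234). Neither was called once the GC trend was divided out, at -0.02 (95% interval -0.27 to 0.22) and -0.17 (-0.48 to 0.13). PC3 and DU145 differed by 0.10 (95% interval -0.46 to 0.65). DU145, the line with the highest LIF, thus had LIFR under 1 FPKM in every library, and PC3 in all but library 1. With the GC trend divided out, BPH-1 was also under 1 FPKM in every library (0.655 to 0.782). LIFR-AS1, an antisense gene that shares 629 exon bases with LIFR, averaged 0.146 FPKM in BPH-1, 0.256 in DU145 and 0.131 in PC3.

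OSMR, the specific chain for oncostatin M (ENSG00000145623, chr5:38845858-38945596, plus strand), separated the 2 cancer lines. BPH-1 libraries held 16.03, 21.1, 18.7 and 16.9 FPKM (18.2 ± 2.2, SD, n = 4). DU145 libraries held 32.8, 97.1, 15.6 and 106 FPKM (63.0 ± 45.5, SD, n = 4), and PC3 libraries 6.99, 8.04, 8.02 and 5.28 FPKM (7.08 ± 1.30, SD, n = 4). PC3 lay below every library of the other lines, and DU145 lay above BPH-1 except for library 3. PC3 was lower than BPH-1 by -1.26 (SE 0.15, adjusted p = 5.41e-05) and lower than DU145 by -2.62 (SE 0.55, adjusted p = 0.00346), and both calls held with the GC trend divided out, at -0.71 and -2.73. The excess of DU145 over BPH-1, 1.37 (SE 0.52, adjusted p = 0.0428), varied with the DU145 libraries that entered it. It was 1.04 and 0.99 without library 2 or library 4 (adjusted p = 0.107 for each), 0.31 without both (adjusted p = 0.329), and 2.43 without libraries 1 and 3 (adjusted p = 1.84e-05). It was also not called without any 1 of the BPH-1 libraries, at 1.31 to 1.44 (adjusted p = 0.0676 to 0.0888), and was 2.02 with the GC trend divided out (adjusted p = 0.00048). After that correction DU145 libraries 1 to 4 held 48.5, 80.8, 30.5 and 92.0 FPKM, all above the 4 BPH-1 libraries (12.3 to 15.3). RICTOR, a gene on the other strand that shares 229 exon bases with OSMR, was higher in BPH-1 (5.5 FPKM on average) than in DU145 (0.471) and PC3 (0.572).

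JAK1, the kinase on which gp130 signalling mainly depends (ENSG00000162434, chr1:64833229-64966504, minus strand), was lower in PC3 than in BPH-1. BPH-1 libraries held 29.5, 41.0, 27.9 and 30.7 FPKM (32.3 ± 5.9, SD, n = 4), and PC3 libraries 15.8, 18.0, 16.5 and 7.03 FPKM (14.3 ± 5.0, SD, n = 4), with no overlap. The log2 difference was -1.18 (SE 0.26, adjusted p = 0.00308) and -1.17 with the GC trend divided out (adjusted p = 0.00237). DU145 was split, with libraries 2 and 4 at 37.2 and 35.6 FPKM, inside the BPH-1 range, and libraries 1 and 3 at 11.7 and 5.91 FPKM, below it. The comparison of DU145 with BPH-1 (-0.81, 95% interval -1.92 to 0.29, and -0.87 with the GC trend divided out) accordingly turned on which libraries entered it. It was 0.19 with libraries 2 and 4 alone (adjusted p = 0.347) and -1.81 with libraries 1 and 3 alone (adjusted p = 0.000594). PC3 against DU145 gave -0.36 (95% interval -1.62 to 0.89), -1.36 without DU145 libraries 1 and 3 (adjusted p = 0.0167) and 0.64 without libraries 2 and 4 (adjusted p = 0.224).

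JAK2, another kinase of the gp130 chain (ENSG00000096968, chr9:4984390-5128183, plus strand), was lower in both cancer lines. BPH-1 libraries held 2.93, 3.31, 3.28 and 3.36 FPKM (3.22 ± 0.19, SD, n = 4). DU145 libraries held 0.296, 0.854, 0.0970 and 0.882 FPKM (0.532 ± 0.396, SD, n = 4), and PC3 libraries 1.16, 0.972, 0.713 and 0.104 FPKM (0.736 ± 0.459, SD, n = 4). The BPH-1 libraries stood above all others. The difference from BPH-1 was -1.50 in DU145 (SE 0.19, adjusted p = 8.79e-05) and -1.32 in PC3 (SE 0.19, adjusted p = 0.000231). With the GC trend divided out it was -0.57 in DU145 (adjusted p = 0.00176) and -0.39 in PC3, which was not called (adjusted p = 0.0569). PC3 and DU145 differed by 0.17 (95% interval -0.38 to 0.72).

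TYK2, the third JAK kinase of the pathway (ENSG00000105397, chr19:10350529-10380676, minus strand), was higher in both cancer lines. BPH-1 libraries held 7.92, 7.72, 7.59 and 8.46 FPKM (7.92 ± 0.38, SD, n = 4). DU145 libraries held 14.0, 10.2, 17.3 and 10.8 FPKM (13.1 ± 3.3, SD, n = 4), and PC3 libraries 15.6, 16.6, 17.0 and 16.5 FPKM (16.4 ± 0.6, SD, n = 4). All 8 cancer line libraries lay above BPH-1. The difference from BPH-1 was 0.96 in PC3 (SE 0.09, adjusted p = 1.42e-05) and 0.63 in DU145 (SE 0.18, adjusted p = 0.0125). PC3 kept its call with the GC trend divided out, at 0.54 (adjusted p = 0.000894), and DU145 did not at 0.12 (adjusted p = 0.307), nor with FPKM rescaled to the same sum (0.40, adjusted p = 0.0815). PC3 against DU145 gave 0.33 (95% interval -0.05 to 0.72), and was called at 0.42 with the GC trend divided out (adjusted p = 0.00453), at 0.47 without DU145 library 3 (adjusted p = 0.0232) and at 0.60 without DU145 libraries 1 and 3 (adjusted p = 0.0033). On the deposited values DU145 library 3 lay above every PC3 library, and the other DU145 libraries lay below them, library 1 the nearest.

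SOCS3, the feedback inhibitor (ENSG00000184557, chr17:78356778-78360077, minus strand), was highest in PC3. BPH-1 libraries held 10.0, 12.2, 13.9 and 9.65 FPKM (11.5 ± 2.0, SD, n = 4). DU145 libraries held 13.7, 9.89, 16.2 and 10.6 FPKM (12.6 ± 2.9, SD, n = 4), and PC3 libraries 21.4, 18.3, 20.8 and 26.0 FPKM (21.6 ± 3.2, SD, n = 4). PC3 lay above every library of the other lines, which overlapped. It was higher than BPH-1 by 0.86 (SE 0.15, adjusted p = 0.000585) and higher than DU145 by 0.75 (SE 0.18, adjusted p = 0.00789), and 0.40 and 0.81 with the GC trend divided out (adjusted p = 0.0375 and 0.00011). Without DU145 libraries 1 and 2, which held PTPRC and LYZ and lacked DCN and COL1A2, the difference from DU145 was 0.67 and was not called (adjusted p = 0.056). DU145 against BPH-1 was 0.12 (95% interval -0.32 to 0.55), and turned to -0.41 with the GC trend divided out (adjusted p = 0.0324).

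**Figure D2:**
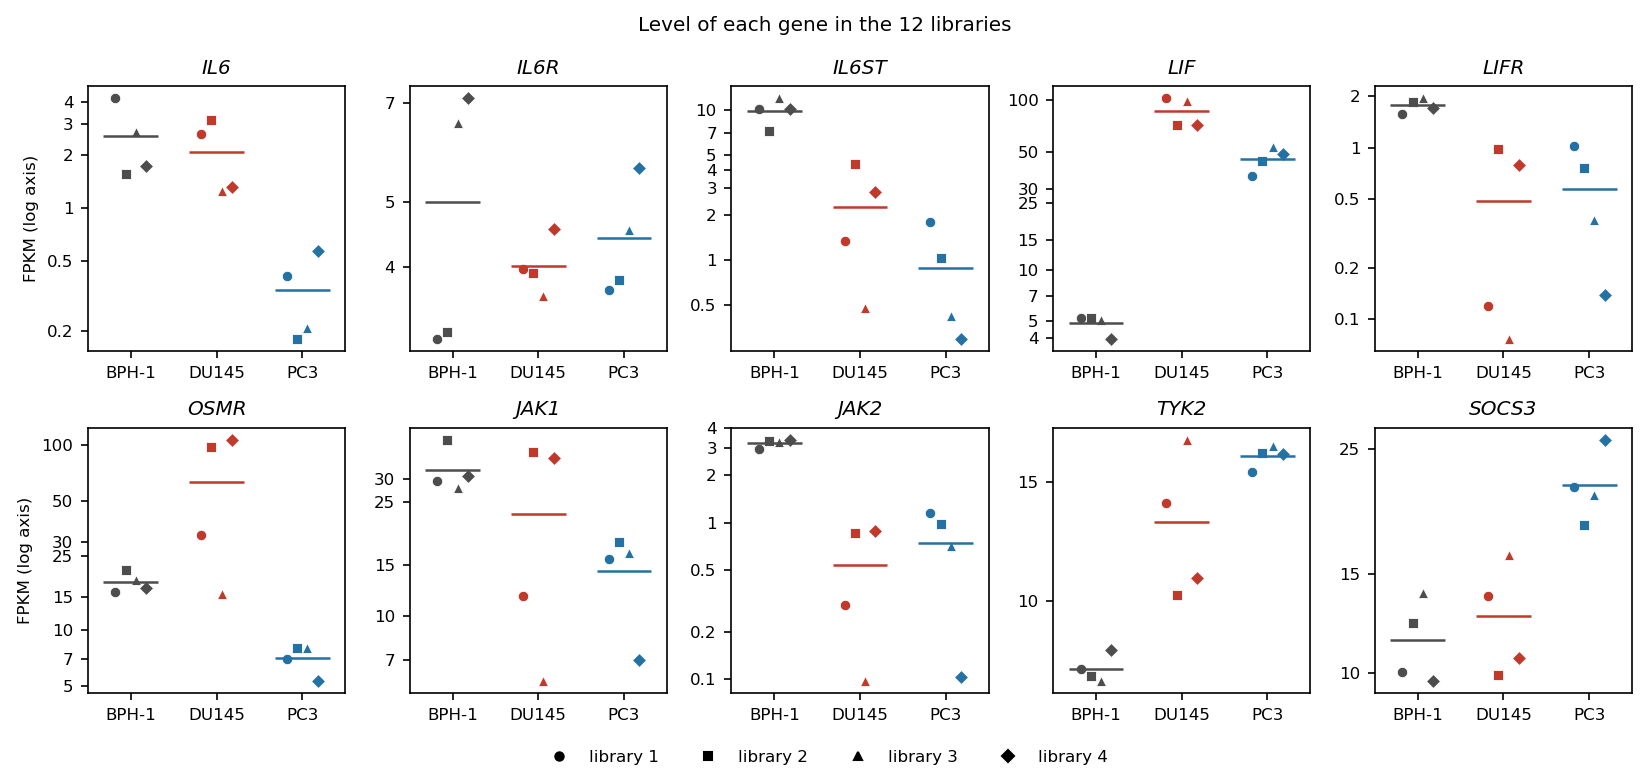
FPKM of each gene (log axis) in the 4 libraries of BPH-1, DU145 and PC3, with a symbol for each library number and a horizontal bar at the mean of the line. LIF separates all 3 lines, IL6 and OSMR are lowest in PC3, and DU145 libraries 1 and 3 lie far below libraries 2 and 4 for IL6ST, LIFR, OSMR, JAK1 and JAK2.

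All 10 genes passed the filter on low values in each comparison. In PC3 against BPH-1, 3 were higher (LIF, TYK2 and SOCS3), 6 lower (IL6, IL6ST, LIFR, OSMR, JAK1 and JAK2) and 1 not called (IL6R). Of all 16345 genes tested there, 27.2% were called higher and 40.5% lower. With the GC trend divided out, 3 members were higher and 4 lower, beside 31.0% and 32.6% of all genes. The median difference of the members was -1.01, beside -0.13 over all genes, and -0.34 beside -0.01 with the GC trend divided out.

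In DU145 against BPH-1, 3 members were higher (LIF, OSMR and TYK2), 3 lower (IL6ST, LIFR and JAK2) and 4 not called. Of all 17070 genes tested, 30.3% were called higher and 32.3% lower. LIF and OSMR were higher with the GC trend divided out, and JAK2 and SOCS3 lower, beside 32.5% and 29.9% of all genes. The median difference was -0.20 in the members and -0.03 over all genes.

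In PC3 against DU145, SOCS3 was higher, 3 members were lower (IL6, LIF and OSMR) and 6 were not called, while 20.0% of the 16210 genes tested were called higher and 28.3% lower. With the GC trend divided out, TYK2 and IL6ST joined them, giving 2 higher and 4 lower, beside 27.8% and 31.1% of all genes. On the deposited FPKM, the shares of members called were near those of all genes in this comparison and in DU145 against BPH-1. With the GC trend divided out, DU145 against BPH-1 had 2 members higher and 2 lower, beside 32.5% and 29.9% of all genes. PC3 against BPH-1 then had 3 higher and 4 lower, beside 31.0% and 32.6%. The comparisons share libraries and are given side by side. Where the lines did not overlap, the exact permutation test over libraries gave p = 0.0286, two-sided, the smallest that 4 against 4 libraries allow.

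**Figure D3:**
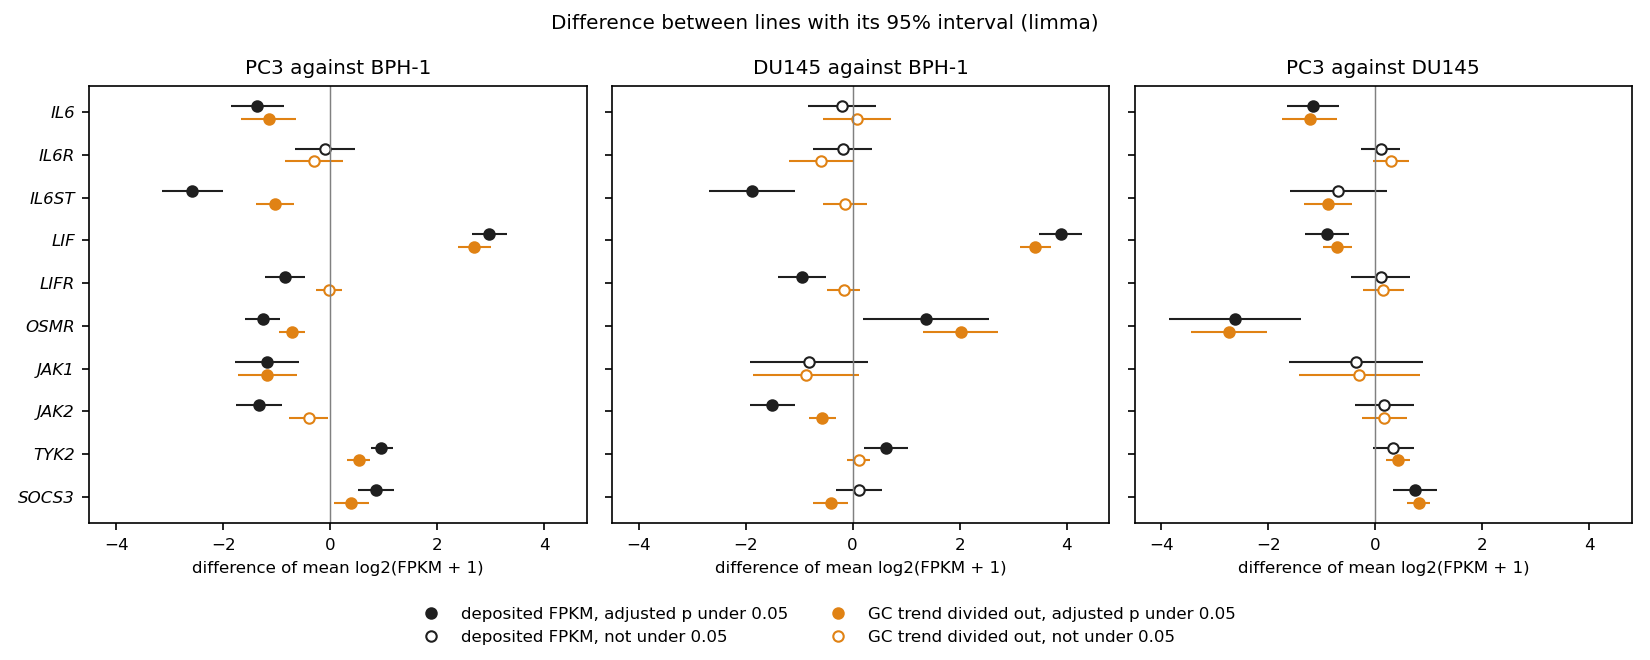
Difference of mean log2(FPKM + 1) for each gene in the 3 comparisons (horizontal axis) with its 95% interval from limma, from the deposited FPKM (black) and with the GC trend divided out (orange); filled points have an adjusted p under 0.05. Against BPH-1, LIF lies between 2.70 and 3.89 under both, and IL6ST, LIFR and JAK2 move towards 0 when the GC trend is divided out.

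The libraries of a line were compared with each other for each gene. In BPH-1 the highest library was at most 2.72-fold the lowest, for IL6. In DU145 this ratio was 12.8 for LIFR, 9.08 for IL6ST, 9.09 for JAK2, 6.82 for OSMR and 6.30 for JAK1, and 2.54 or less for the other members. In PC3 it was 11.1 for JAK2, 7.35 for LIFR and 6.04 for IL6ST. The ratio in DU145 fell with the GC trend divided out, to 3.09 for LIFR, 2.13 for IL6ST, 2.60 for JAK2 and 3.02 for OSMR, and rose to 2.97 for IL6 and 1.71 for IL6R. For JAK1, a gene of 48.2% GC, it remained 4.78, with DU145 libraries 1 to 4 at 11.8, 32.8, 6.86 and 31.1 FPKM after the correction. SOCS3 and TYK2 were within 1.08-fold and 1.12-fold among the DU145 libraries after the correction.

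**Figure D4:**
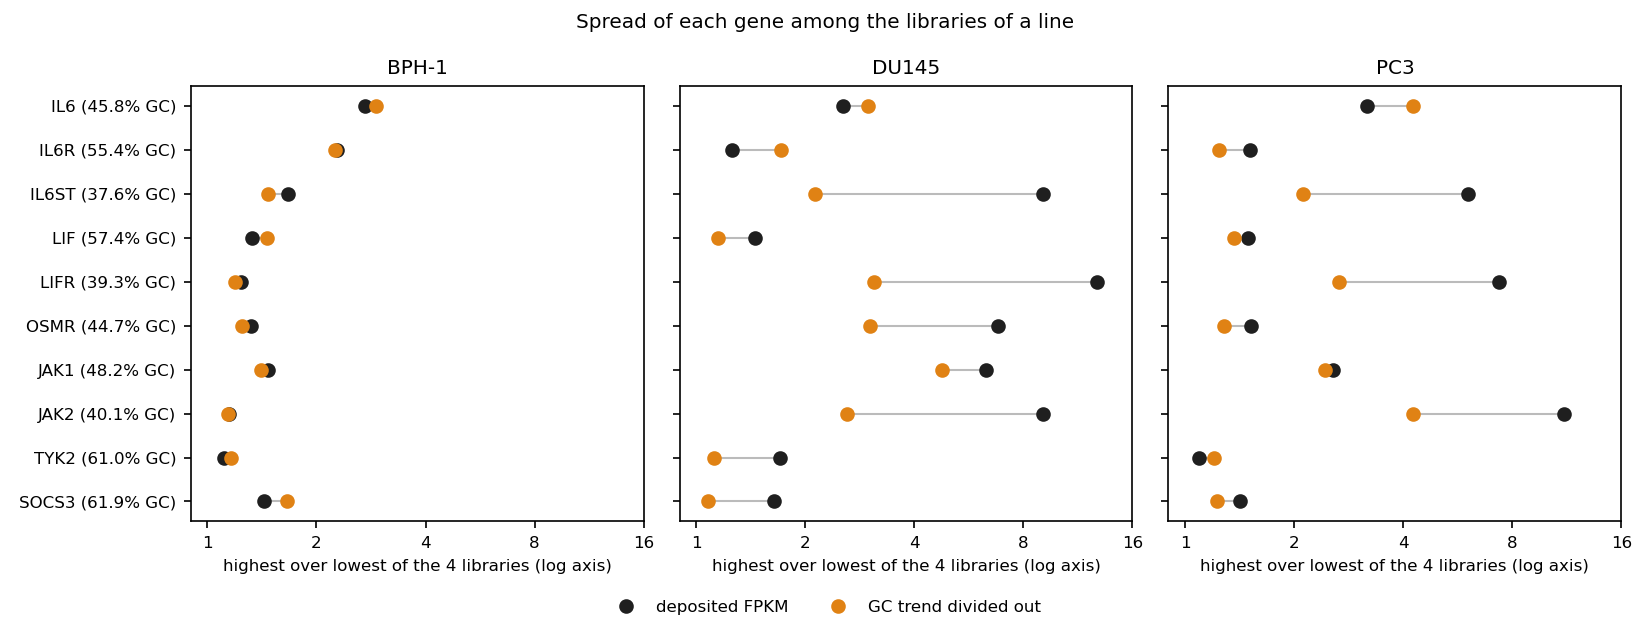
Highest over lowest FPKM among the 4 libraries of each line (horizontal log axis) for each gene, with its GC content in percent, from the deposited values (black) and with the GC trend divided out (orange). In DU145 the ratio for LIFR falls from 12.8 to 3.09 and that for JAK1 from 6.30 to 4.78.

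Levels of different genes were compared per length. In BPH-1, JAK1 had the highest mean FPKM of the 10 (32.3 ± 5.9), followed by OSMR (18.2 ± 2.2) and SOCS3 (11.5 ± 2.0), and LIFR the lowest. The library ranges of neighbours in that order did not overlap between JAK1 and OSMR, OSMR and SOCS3, TYK2 and IL6R, and LIF and JAK2, and overlapped for the other neighbours. In DU145, LIF came first (86.4 ± 17.1) and OSMR next (63.0 ± 45.5), with overlapping ranges. In PC3, LIF came first (45.4 ± 7.5) and SOCS3 next (21.6 ± 3.2), without overlap, and IL6 last. The authors' length counts overlapping exons of a gene more than once, by a factor of 2.89 for IL6ST, 2.37 for IL6 and 1.74 for TYK2 and 1.06 to 1.52 for the others. On merged exons, IL6ST would rank 2 in BPH-1 in place of 4, TYK2 would pass SOCS3 in PC3, IL6 would rank 8 in PC3 in place of 10, with LIFR last, and JAK1 would still lead BPH-1 and LIF both cancer lines.

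Around the 10 genes, 54 other genes of the pathway were read. In PC3 against BPH-1, 47 could be tested, of which 10 were higher, 28 lower and 9 not called, beside 27.2% and 40.5% of all genes, and 10 and 25 with the GC trend divided out, beside 31.0% and 32.6%. In DU145 against BPH-1, 20 of 48 were higher and 16 lower, beside 30.3% and 32.3%, and 20 and 15 with the correction, beside 32.5% and 29.9%. In PC3 against DU145, 6 of 46 were higher and 19 lower, beside 20.0% and 28.3%, and 13 and 21 with the correction, beside 27.8% and 31.1%. Their median difference was -0.54, 0.22 and -0.16 in that order, beside -0.13, -0.03 and -0.05 over all genes.

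Among the other ligands, IL11, which signals through IL11RA and IL6ST, was at 5.48 ± 0.65 FPKM in BPH-1, 31.1 ± 12 in DU145 and 1.04 ± 0.72 in PC3 (SD, n = 4 each). PC3 libraries 1 to 4 held 0.661, 0.644, 0.736 and 2.11 FPKM, so the PC3 mean depends on library 4. IL11 was called in all 3 comparisons, with 2.24 in DU145 and -1.72 in PC3 against BPH-1. CLCF1, a ligand of the CNTF receptor, was higher in both cancer lines, by 1.77 in DU145 (adjusted p = 5.63e-05) and 1.71 in PC3 (adjusted p = 0.000129). EBI3, a subunit of interleukin 27, was lower in both, by -1.41 and -2.15. DU145 thus held the highest level of LIF and of IL11, and PC3 the lowest of IL6 and of IL11.

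Of the 4 other receptor chains, 3 could be tested and all 3 were higher in DU145 than in BPH-1, beside 30.3% of all genes, while CNTFR had at most 3 reads in any library. In PC3 against BPH-1, 1 was higher, 1 lower and 1 not called, beside 27.2% and 40.5% of all genes. IL31RA, which pairs with OSMR for interleukin 31, was at 3.46, 6.88, 2.14 and 6.63 FPKM in DU145 libraries 1 to 4, against 0.83 to 1.08 in BPH-1 and 0.23 to 0.43 in PC3. DU145 exceeded BPH-1 by 1.48 (adjusted p = 0.0012), and libraries 2 and 4 were again the higher ones. IL27RA and IL11RA were also higher in DU145 than in BPH-1, by 1.65 (adjusted p = 3.97e-05) and 0.95 (adjusted p = 0.000147). IL27RA in PC3 library 4 (20.6 FPKM) lay inside the DU145 range, and its PC3 against DU145 difference of -0.68 (adjusted p = 0.0449) lost its call under most alternatives, for instance with median-of-ratios scaling (-0.59, adjusted p = 0.107).

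STAT3, the main transcription factor of the pathway, was at 15.4 ± 2.2 FPKM in BPH-1 and 24.2 ± 2.0 in DU145 (SD, n = 4 each), a difference of 0.63 (adjusted p = 0.0048) that was not called with FPKM rescaled to the same sum (0.39, adjusted p = 0.053) and was 0.31 with the GC trend divided out (adjusted p = 0.0426). In PC3 it was at 0.0315, 0.0446, 0.0588 and 0.0315 FPKM, on 6 to 12 reads a library. STAT5A had 0 reads in all PC3 libraries, at least 123-fold lower than BPH-1 at 3 reads per library. STAT5B had a total of 2 reads over the PC3 libraries, both in library 1. Of the 7 STAT genes, 5 were lower and 1 higher in PC3 than in BPH-1, and 4 were higher and 1 lower in DU145, beside 27.2% higher and 40.5% lower, and 30.3% and 32.3%, of all genes. After the GC correction the counts were 0 higher and 5 lower in PC3, beside 31.0% and 32.6% of all genes, and 4 higher and 1 lower in DU145, beside 32.5% and 29.9%.

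Among the other SOCS genes, 4 of 7 were lower and none higher in PC3 than in BPH-1, beside 27.2% higher and 40.5% lower of all genes, and 1 was higher and 5 lower in DU145, beside 30.3% and 32.3%. After the GC correction these counts were 1 higher and 2 lower in PC3, beside 31.0% and 32.6% of all genes, and 1 higher and 3 lower in DU145, beside 32.5% and 29.9%. SOCS6, singled out after its values were seen, turned in PC3 from -0.62 (adjusted p = 0.00411) to 0.37 (adjusted p = 0.00346), and SOCS7 went from -0.25 (adjusted p = 0.0808) to -0.41 (adjusted p = 0.00733). In DU145, SOCS7 was higher than in BPH-1 (1.15, adjusted p = 0.00013, and 0.75 after the correction). SOCS4 and SOCS5 were lower in both cancer lines, by -1.59 and -0.75 in PC3 and -1.88 and -1.20 in DU145, and in PC3 neither was called once the GC trend was divided out (0.04 and 0.06). In DU145 after that correction SOCS5 stayed called (-0.46, adjusted p = 0.00378) and SOCS4 did not (-0.38, adjusted p = 0.0547). PIAS1, a SUMO ligase, was lower in PC3 (-1.83) and DU145 (-1.99), and stayed so after the correction (-1.25 and -1.45). PTPN1, a phosphatase that acts on JAK2 and TYK2, was lower in PC3 than in BPH-1 (-0.80, adjusted p = 0.000258), and so was PIAS4 (-0.66, adjusted p = 0.00345, and -1.10 after the GC correction). Both calls were lost with upper-quartile scaling, PTPN1 at -0.41 (adjusted p = 0.0546) and PIAS4 at -0.28 (adjusted p = 0.234).

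The adaptors SHC1 and PTPN11, which link gp130 to the MAP kinase pathway, differed in opposite directions from BPH-1 in DU145. SHC1 was at 17.5 ± 1.6 FPKM in BPH-1, 85.2 ± 30 in DU145 and 8.89 ± 1.2 in PC3, higher in DU145 by 2.15 (adjusted p = 5.09e-05) and lower in PC3 by -0.91 (adjusted p = 0.000123). PTPN11 was at 80.1 ± 13, 14.0 ± 12 and 25.9 ± 14 FPKM (SD, n = 4 each), and was lower in both cancer lines, by -2.92 in DU145 (adjusted p = 0.00196) and -1.78 in PC3 (adjusted p = 0.00332). DU145 libraries 1 to 4 held PTPN11 at 4.71, 24.8, 2.40 and 24.0 FPKM, and PC3 libraries at 36.3, 37.9, 21.1 and 8.29. The size of both differences thus varied with the library. With the GC trend divided out both calls held, at -2.57 and -1.44. SOS1, the exchange factor next to them, was also lower, by -2.32 and -1.95, and by -0.94 and -0.49 with the GC trend divided out (adjusted p = 0.000616 and 0.0108). ADAM17, a protease that sheds IL6R, was at 18.8, 51.0, 10.0 and 52.3 FPKM in DU145 libraries 1 to 4, the same split of libraries as for OSMR and JAK1. Its difference from BPH-1 was 0.51 (adjusted p = 0.351), and it was called at 0.95 without DU145 library 3 (adjusted p = 0.0306) and at 1.91 with the GC trend divided out (adjusted p = 8.34e-06). ADAM10, the other sheddase, was lower in PC3 than in BPH-1 (-2.03, adjusted p = 4.94e-06), and by -0.94 with the GC trend divided out (adjusted p = 2.52e-05). Its difference in DU145 (-1.49, adjusted p = 0.00137) was not called after the correction (-0.26, adjusted p = 0.0671).

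Genes known to be induced by STAT3 were mixed. In PC3 against BPH-1, 5 of 9 tested were higher and 3 lower, and in DU145 6 were higher and 1 lower, beside 27.2% and 40.5%, and 30.3% and 32.3%, of all genes. After the GC correction 4 were higher and 4 lower in PC3, and 4 higher and 2 lower in DU145, beside 31.0% and 32.6%, and 32.5% and 29.9%, of all genes. BCL2L1, an anti-apoptotic gene, was higher in both, by 1.95 in PC3 (adjusted p = 6.96e-07) and 2.12 in DU145 (adjusted p = 9.64e-06), and so was the adhesion gene ICAM1 (2.53 and 2.54). PIM1, a kinase, was lower in PC3 (-1.07, adjusted p = 0.00597) and higher in DU145 (0.87, adjusted p = 0.00803), where the call was lost with the GC trend divided out (0.38, adjusted p = 0.0685).

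Genes whose level ran most like a member's over the 12 libraries were sought among 13998 protein-coding genes, as a description. The libraries share lines, depth and base composition, and Pearson's r of log2(FPKM + 1) is given for the most alike gene, named first. It was 0.938 for IL6 (SOCS2, then NUAK1) and 0.929 for IL6R (AKR1C1, then AKR1C2). For LIF it was 0.994 (FUOM), for OSMR 0.988 (RAB3B, then SALL4) and for SOCS3 0.978 (TOMM34, then ELOF1). The AT-rich members were matched at 0.996 for IL6ST (ZNF146 and WBP4), 0.994 for LIFR (SLMAP) and 0.995 for JAK2 (UBXN4 and HOOK3). JAK1 reached 0.985 (WDR26, then RAB6A) and TYK2 0.990 (VPS28).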

How the data were processed

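Total RNA of 12 libraries was sequenced after TRIzol extraction and a NEBNext Ultra RNA library kit. The values the authors deposited are FPKM on GRCh38, 1 per gene and library, although the header names no unit. The submitters' processing notes list CASAVA 1.8, HISAT2 2.1.0 and edgeR with no roles. The counter and its use of strand are not given in the sources used here.

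Depth was recovered from the steps of low FPKM values with the sum of distinct exon lengths per gene of GENCODE 29 (56610 genes placed), and 92.95% to 94.15% of protein-coding values under 30 reads came out whole within 0.05 reads. A gene was tested where 4 or more of the libraries compared reached the FPKM worth 10 reads at their median depth. Those libraries together also had to hold 15 reads. Over all 12 libraries the median depth was 15341002 reads. Tests ran with limma 3.58.1 (R 4.3.3, intensity trend) on log2(FPKM + 1), each fit holding only the lines compared, with Benjamini-Hochberg adjustment over all tested genes. Single values were tested by an exact two-sided permutation test. Tables and plots used Python 3.11.15, numpy 2.4.6, pandas 2.3.3 and matplotlib 3.10.9, and the fits and the depth recovery were tested on simulated data. Read floors (3 reads) cover counting error only.

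The GC trend was a spline of log2 FPKM on gene GC content per library, over 12429 genes with a mean of at least 50 reads. Other alternatives were the filter, the scaling, a pseudocount of 0.1, voom on recovered reads, a fit over all lines, the replicate block and leaving out libraries. Leaving out pairs of DU145 libraries was chosen after seeing the data.

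All members were named. Of the pathway list, STAT3 was named, and in each role at most the 3 genes with the largest range of line means among those with at least 1 FPKM in a line and calls in 2 or more comparisons. The members and lists were chosen with earlier results of these data known. Promoter windows are from RefSeq (GRCh38.p14), and the table used held none for LIF. For each member the 2 protein-coding genes most like it were sought, and some of these are not reported here.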

Additional observations from a re-analysis of the deposited data

Results flagged for a closer look

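LIF in BPH-1 library 4, at 3.91 FPKM, stood apart from the other 3 libraries of the line, with a gap of 0.911 of the group's range, above Dixon's 95% critical value for 4 samples. Chance puts about 5% of groups above that value, and 30 groups were tested.

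The differences of the cancer lines from BPH-1 were not the same in both lines for 4 members, by the limma test of PC3 against DU145. These were IL6 (-1.16, adjusted p = 0.00191), LIF (-0.91, adjusted p = 0.00286), OSMR (-2.62, adjusted p = 0.00346) and SOCS3 (0.75, adjusted p = 0.00789). Of all 16210 genes tested in that comparison, 20.0% were called higher and 28.3% lower, so the share of members called was near that of all genes.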

How the results depend on the processing

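Of 629 values of the 30 member differences under the alternatives, 577 kept their direction and their side of the threshold, 23 lost the call, 10 gained it and 19 changed sign, and 13 differences kept both throughout. The number of members called was 9 of 10 in PC3 against BPH-1 (7 with the GC trend divided out, 9 without any 1 library). Over all 16345 genes it was 11057 (10394 with the GC trend divided out). In DU145 against BPH-1 it was 6 members (4 with the GC trend divided out, 5 to 6 without 1 library), beside 10689 (10652) of 17070 genes. In PC3 against DU145 it was 4 members (6 with the GC trend divided out, 4 to 6 without 1 library), beside 7821 (9538) of 16210 genes. There, 7 members were called without both DU145 libraries 1 and 3, beside 8901 of 16916 genes. Without libraries 1 and 2 it was 3, beside 6371 of 16849. With the replicate block the counts were 9, 6 and 4 members, beside 10710, 10152 and 6654 genes called. Same-numbered libraries deviated together in no regular way (correlations of -0.69 to 0.56). These correlations still hold the GC trend of each library, so they cannot tell whether the numbers pair the libraries.

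These differences changed sign. In PC3 against BPH-1, IL6R was 0.25 with upper-quartile scaling and -0.245 to 0.0802 without 1 library (0.0451 without BPH-1 library 3), and SOCS7 was 0.0872 with upper-quartile scaling. With the GC trend divided out, also with a pseudocount of 0.1, SOCS4 was 0.0353 and 0.06, SOCS5 0.0602 and 0.0743, and ADAM17 0.237 and 0.255. In DU145 against BPH-1, IL6 was 0.0761 and 0.109 and SOCS3 -0.413 and -0.441 under those settings, and PIAS4 -0.316 and -0.335. IL6 ran from -0.357 to 0.00734 without 1 library, and IL6R was 0.0515 with upper-quartile scaling. With FPKM rescaled to the same sum SOCS3 was -0.114 and PIAS4 -0.0173. SOCS3 ran from -0.00401 to 0.216 without 1 library. Without DU145 libraries 1 and 3, JAK1 was 0.185, SOCS3 -0.133 and PIAS4 -0.0866, and without 2 and 4 ADAM17 was -0.409. In PC3 against DU145, LIFR was -0.0217 and -0.0407 without DU145 library 1 or 3 and -0.0331 without PC3 library 1. Without DU145 libraries 1 and 3, LIFR was -0.29, JAK2 -0.149, SOCS4 -0.0545 and SOS1 -0.12, and without 2 and 4 JAK1 was 0.636 and ADAM10 0.0172. The cause was not tested.

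The scaling also set the balance of calls over all genes. In PC3 against BPH-1, 40.2% of calls were higher, 55.2% with upper-quartile scaling (median shifted by 0.23) and 30.3% with FPKM rescaled to the same sum (-0.16), and in DU145 against BPH-1 the shares were 48.4%, 57.2% (0.16) and 38.6% (-0.14). Dividing out the GC trend (median shifted by 0.11 in PC3 against BPH-1) also removes real differences that follow GC content.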
